A study of Homo sapiens with 15 samples.

Results

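The genes described here are 36 genes of the tricarboxylic acid (TCA) cycle and of the reactions that join it to pyruvate, citrate, malate, glutamate and aspartate. They were listed by name and pathway, with earlier results of these data known, and all 36 were found among the 17272 genes of the expression table. LNCaP is an established human prostate cancer cell line whose growth depends on the androgen receptor and which secretes prostate specific antigen. Cells were kept in charcoal-stripped, steroid-depleted serum for 48 h and then treated for 22 h, and RNA selected on poly-T beads was sequenced as 50-base single-end reads. All groups received the synthetic androgen R1881. In the first group it was given with the solvent DMSO (10 libraries, called R1881), and in the second with 2 µM of the androgen receptor antagonist darolutamide (5 libraries, called the combination). The labels give 1 nM R1881 and these group sizes, while the methods of the study give 1 µM and 5 and 10 libraries, and the labels were followed. R1881 libraries carry the numbers 51 to 55 and 71 to 75 and combination libraries 86 to 90, so that the effects of treatment and run of numbers cannot be told apart. No group without R1881 and none with darolutamide alone was analysed here, and each library represents a culture of 1 cell line.

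The TCA cycle oxidises acetyl-CoA, made from pyruvate by the pyruvate dehydrogenase complex, through citrate, isocitrate, 2-oxoglutarate, succinate, fumarate and malate back to oxaloacetate. Glutamate enters the cycle as 2-oxoglutarate through glutamate dehydrogenase or the aminotransferases, and citrate leaves it through a carrier of the inner mitochondrial membrane to feed fatty acid and sterol synthesis. Normal prostate epithelium is known for accumulating zinc and for secreting citrate instead of oxidising it, a feature that prostate cancer cells largely lose.

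Depth was 15830745 to 24316740 reads per R1881 library and 21870398 to 25317567 per combination library, and values are those deposited by the authors as CPM, whose sums per library, 1005403 to 1078567, differ, so that a scaling other than the library total was used. The androgen-induced genes KLK3, which encodes prostate specific antigen, and FKBP5, a co-chaperone of the androgen receptor, checked the labels. KLK3 went from 1588 ± 209 (SD, n = 10) to 615 ± 55.9 CPM (SD, n = 5) and FKBP5 from 1502 ± 87.4 to 152 ± 11.1 CPM. All 9 luminal prostate markers were detected, with a summed level of 7627 to 8558 CPM with R1881 and 5193 to 5351 CPM with the combination. Of markers of other cells, the 6 immune genes and 3 of 5 basal genes (KRT5, TP63 and KRT15) were not analysed here. Of the basal genes measured, KRT14 was lower (log2 difference -0.43, adjusted p = 0.00846 from limma) and ITGA6 did not pass. Of 4 endothelial genes VWF alone was measured, and was higher, at 2.56 ± 0.256 and 3.82 ± 0.231 CPM (0.50, adjusted p = 2.68e-05 from limma). Of fibroblast genes, 3 of 7 were measured, all higher in the combination, with a sum of 6.36 to 10.5 CPM and of 13.5 to 30.6 CPM. COL3A1 went from 1.84 ± 0.480 to 8.19 ± 0.721 CPM. COL1A1 went from 6.03 ± 1.28 to 10.1 ± 6.06 CPM (adjusted p = 0.041 from limma), with a highest combination library of 20.6 CPM. LUM was low in both groups, at 0.213 and 0.496 CPM. The part of these markers in the results was not tested. In bulk RNA, fewer cells of a type and less RNA per cell cannot be told apart.

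Of the 36 genes, 17 differed between the groups, 14 of them lower and 3 higher in the combination (limma, Benjamini-Hochberg adjusted p under 0.05 over all genes), and 19 did not. Across the measured transcriptome 46.6% of genes differed, with 23.7% lower and 22.8% higher, so that 38.9% of these genes against 23.7% of all genes were lower, and 8.33% against 22.8% were higher. The log2 difference, combination minus R1881 of log2(CPM + 0.5), had a median of -0.09 over the 36 genes and 0.00 over all genes, with a range from -1.01 (IDH1) to 0.37 (PDK2). The groups did not overlap in 9 of the 36 genes. Of these, 8 had all combination libraries below the lowest R1881 library, against 12.6% of all genes, and 1, ME2, had all of them above the highest, against 10.8%. With reads scaled only by the total of each library, the median of all genes rose by 0.07, and 9 of the 36 genes were lower and 6 were higher, against 17.5% and 30.8% of all genes (48.4% together). The 5 genes whose lower call was lost in that scaling were PDHA1, PDHB, IDH2, DLST and ME1, and the 3 that became higher were SUCLG1, SDHC and SDHD. The share of all reads that fell on the 36 genes was 0.655% ± 0.00887 (SD, n = 10) with R1881 and 0.533% ± 0.00617 (SD, n = 5) with the combination.

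**Figure D1:**
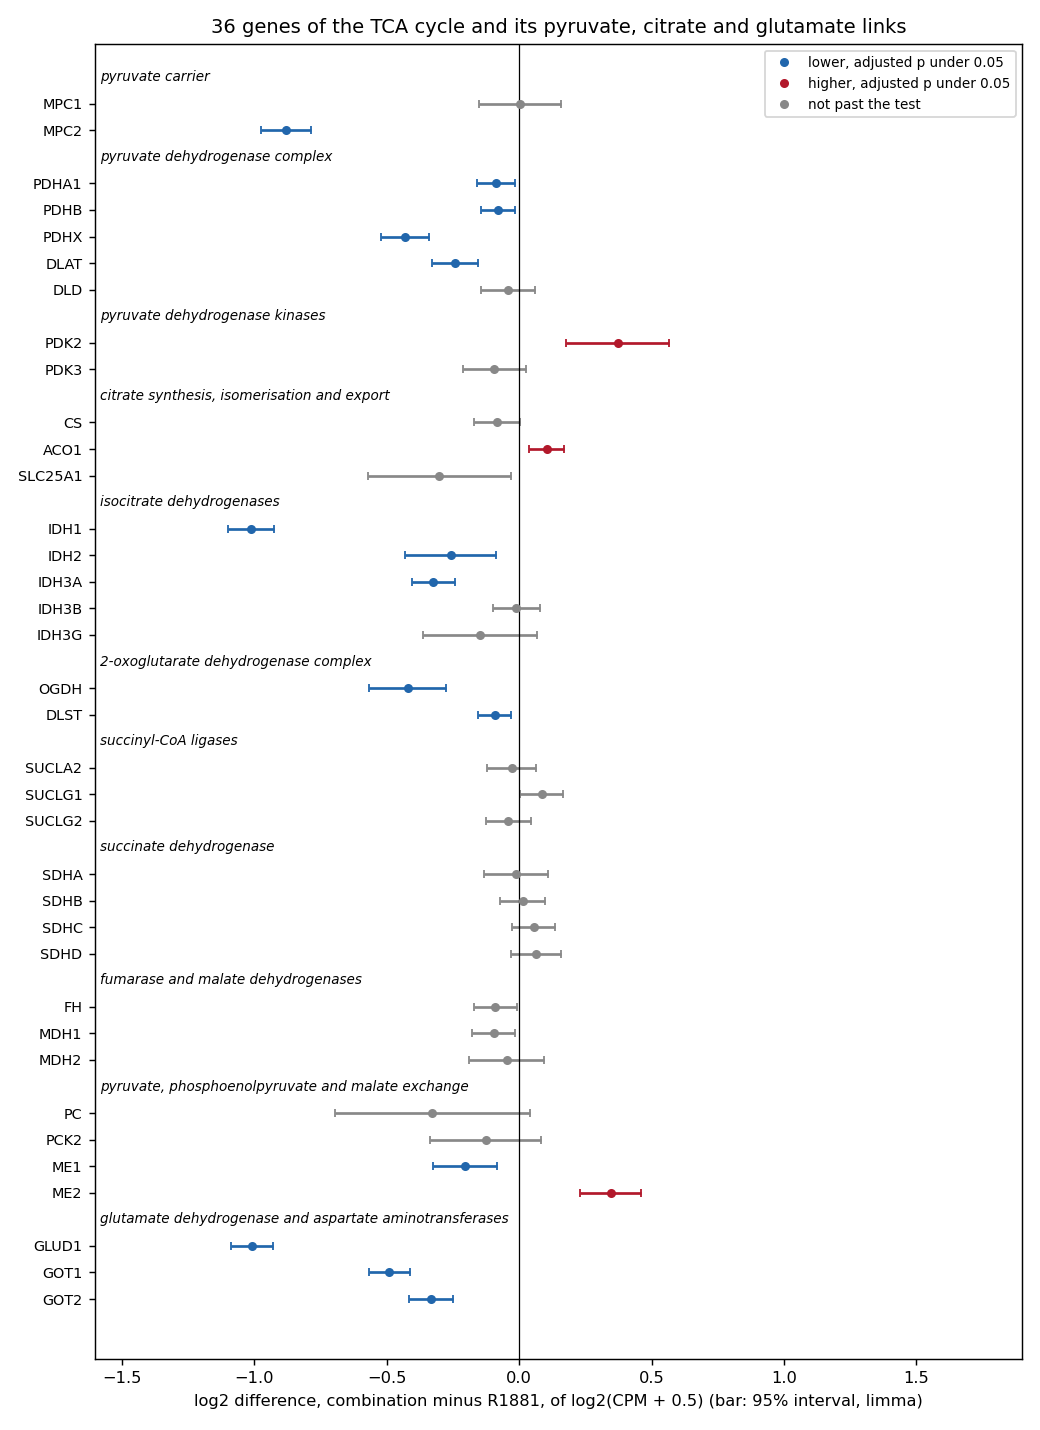
Log2 difference (x axis, combination minus R1881 of log2(CPM + 0.5)) of each of the 36 genes, ordered by step of the pathway, with its 95% interval from limma and coloured by whether it passed the test. IDH1, GLUD1 and MPC2 lie between -1.01 and -0.88, apart from the other 33 genes, which lie between -0.49 and 0.37, and no gene of succinate dehydrogenase or of the succinyl-CoA ligases passed the test.

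Most of the lower abundance lay in 3 genes. IDH1, GLUD1 and MPC2 together fell from 2457 ± 115 (SD, n = 10) to 1251 ± 29.6 CPM (SD, n = 5), which was 76.4% of the 1577 CPM by which the sum of all 36 genes fell. They were the 3 genes of the 36 whose log2 difference was -0.5 or lower and which passed the test, which 6.68% of all genes did. Without them, 11 of 33 genes were lower (33.3%) and 3 were higher (9.09%), against 23.7% and 22.8% of all genes. The 33 had a median of -0.09, and their sum went from 4522 ± 40.5 to 4151 ± 30.8 CPM. The 3 genes were set apart by their own differences in these data, so these counts are a description only. Per kilobase of their Ensembl canonical transcripts, the scale on which levels of different genes can be set side by side, IDH1 had the highest level of the 36 with R1881 (503 CPM per kb) and with the combination (250 CPM per kb, n = 10 and 5). MPC2 went from the second place (306 CPM per kb) to the fourth (166), and GLUD1 from the fifth (185) to the eighth (91.8). PDK2 (5.18 CPM per kb), ME2 (8.37) and PC (10.2) had the lowest levels with R1881.

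Promoter windows are printed for these 3 genes, chosen for their falls, and for ME2, the gene with no overlap in the opposite direction. They show the 250 bases before the RefSeq start on GRCh38.p14, read 5′ to 3′ on the gene's strand. For each gene 1 RefSeq start, the first listed, was used. By the GENCODE positions given below, the windows of IDH1 and MPC2 lie inside the gene, downstream of its outermost start. That of ME2 crosses this start, and other starts of these genes were not searched. Capitals mark matches to the CCAAT box on either strand. They are chr2:208254459-208254708 (minus strand) for IDH1, chr10:87094844-87095093 (minus strand) for GLUD1, chr1:167935997-167936246 (minus strand) for MPC2 and chr18:50878868-50879117 (plus strand) for ME2.
IDH1: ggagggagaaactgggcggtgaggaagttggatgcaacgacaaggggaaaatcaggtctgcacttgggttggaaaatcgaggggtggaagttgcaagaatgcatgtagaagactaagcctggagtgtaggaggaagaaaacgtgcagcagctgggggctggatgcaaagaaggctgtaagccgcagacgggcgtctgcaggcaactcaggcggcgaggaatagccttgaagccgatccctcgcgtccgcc
GLUD1: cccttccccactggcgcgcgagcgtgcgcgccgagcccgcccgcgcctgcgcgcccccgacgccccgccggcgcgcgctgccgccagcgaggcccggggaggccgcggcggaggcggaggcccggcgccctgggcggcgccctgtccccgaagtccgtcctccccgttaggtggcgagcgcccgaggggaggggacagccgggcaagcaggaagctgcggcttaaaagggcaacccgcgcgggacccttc
MPC2: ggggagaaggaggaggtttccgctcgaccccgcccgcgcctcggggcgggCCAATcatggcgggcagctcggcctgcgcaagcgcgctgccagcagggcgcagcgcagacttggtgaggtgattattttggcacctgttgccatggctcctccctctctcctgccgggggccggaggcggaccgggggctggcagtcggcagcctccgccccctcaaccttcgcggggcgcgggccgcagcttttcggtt
ME2: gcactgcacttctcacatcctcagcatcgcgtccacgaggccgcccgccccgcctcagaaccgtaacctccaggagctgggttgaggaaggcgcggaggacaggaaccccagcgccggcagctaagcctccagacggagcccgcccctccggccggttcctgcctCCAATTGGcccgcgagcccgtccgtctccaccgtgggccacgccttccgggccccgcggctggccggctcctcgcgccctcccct
The windows of IDH1 and GLUD1 held none of the 7 motifs searched, and those of MPC2 and ME2 held the CCAAT box alone, in ME2 as overlapping matches on both strands. GC content was 56.8% in the window of IDH1, 80.4% in that of GLUD1, 71.6% in that of MPC2 and 72.4% in that of ME2. Of the 36 genes, 34 had a promoter in the RefSeq table, all but OGDH and SDHC. CCAAT was found in 16 of the 34 (47.1%) and in 35.7% of the 9968 genes of the table with a promoter there. The androgen receptor motif AGAACA was found in 1 of 34 (PC; 2.94%) and in 7.27% of the 9968, the ETS motif CCGGAAGT in 4 (IDH3B, DLST, SDHD and MDH2; 11.8% against 7.22%), the NRF1 core GCGCATGCG in 1 (SDHD; 2.94% against 3.31%) and the E-box CACGTG in 1 (PDHB; 2.94% against 8.95%). The core of the sterol regulatory element TCACCCCAC and the ERR motif TCAAGGTCA were in none of the 34 and in 0.341% and 0.161% of the 9968. A match describes letters in this window and is not a site of binding.

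Pyruvate enters mitochondria through a carrier built from MPC1 and MPC2, and these partners did not respond alike. MPC2 (chromosome 1 of GRCh38, 167916675 to 167937072, minus strand) was at 639 to 735 CPM with R1881, with a median of 673, and at 359, 369.9, 356, 417 and 347 CPM in combination replicates 1 to 5. All 5 combination libraries lay far below the lowest R1881 library, and the mean fell to 54.3% of the R1881 level (log2 difference -0.88, standard error 0.045, adjusted p = 1.98e-11 from limma). The opposite strand holds DCAF6, which overlaps 8.37% of the exon bases of MPC2 and was itself lower by limma (log2 difference -0.61, adjusted p = 1.13e-08). MPC1 was 20.02 ± 2.24 CPM (SD, n = 10) and 19.98 ± 1.12 CPM (SD, n = 5), and its groups overlapped throughout (log2 difference 0.00, 95% interval -0.15 to 0.16, adjusted p = 0.976 from limma). Per kilobase, MPC2 exceeded MPC1 by a ratio of 13.9 ± 1.15 with R1881 and of 7.56 ± 0.909 with the combination.

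The pyruvate dehydrogenase complex converts pyruvate to acetyl-CoA, and 4 of its 5 measured genes were lower, against 23.7% of all genes. The largest difference was that of PDHX (chromosome 11, 34915829 to 35020591), which tethers the E3 subunit to the core. PDHX was at 126 to 146 CPM with R1881, with a median of 138, and at 106, 100.5, 105, 90.1 and 109 CPM with the combination, without overlap (log2 difference -0.43, standard error 0.044, adjusted p = 2.31e-07 from limma). DLAT, the acetyltransferase core, also had no overlap, with 119 ± 5.34 and 100.7 ± 6.08 CPM (log2 difference -0.24, adjusted p = 0.000108 from limma). Its groups lay close, since the lowest R1881 library had 111 CPM and the highest combination library 108 CPM. PDHA1 and PDHB, the E1 subunits, differed by -0.09 and -0.08 with adjusted p of 0.0482 and 0.045 from limma, and neither passed with library totals, TMM scaling, edgeR or DESeq2. The call of PDHA1 was also lost when any of 10 libraries was left out (adjusted p up to 0.105 from limma), and that of PDHB when any of 11 was (up to 0.133). DLD, the E3 subunit that this complex shares with the 2-oxoglutarate dehydrogenase complex, did not pass (250.2 ± 14.2 and 243 ± 18.0 CPM, adjusted p = 0.505 from limma).

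The pyruvate dehydrogenase kinases phosphorylate and inactivate E1. PDK2 was at 14.97 to 20.9 CPM with R1881, with a median of 17.6, and at 20.9, 22.4, 18.4, 29.6 and 23.0 CPM with the combination. Combination replicate 3 lay within the R1881 range and replicate 4 stood highest. The log2 difference was 0.37 (standard error 0.093, adjusted p = 0.00301 from limma), and against R1881 libraries 71 to 75 alone it was 0.30 with an adjusted p of 0.0527 from limma. SAMD14 on the opposite strand overlaps 62.8% of the exon bases of PDK2 and had 0.305 and 0.598 CPM in the means of the groups. PDK3 did not pass, at 22.8 ± 1.38 and 21.3 ± 1.78 CPM (log2 difference -0.09, adjusted p = 0.191 from limma).

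**Figure D2:**
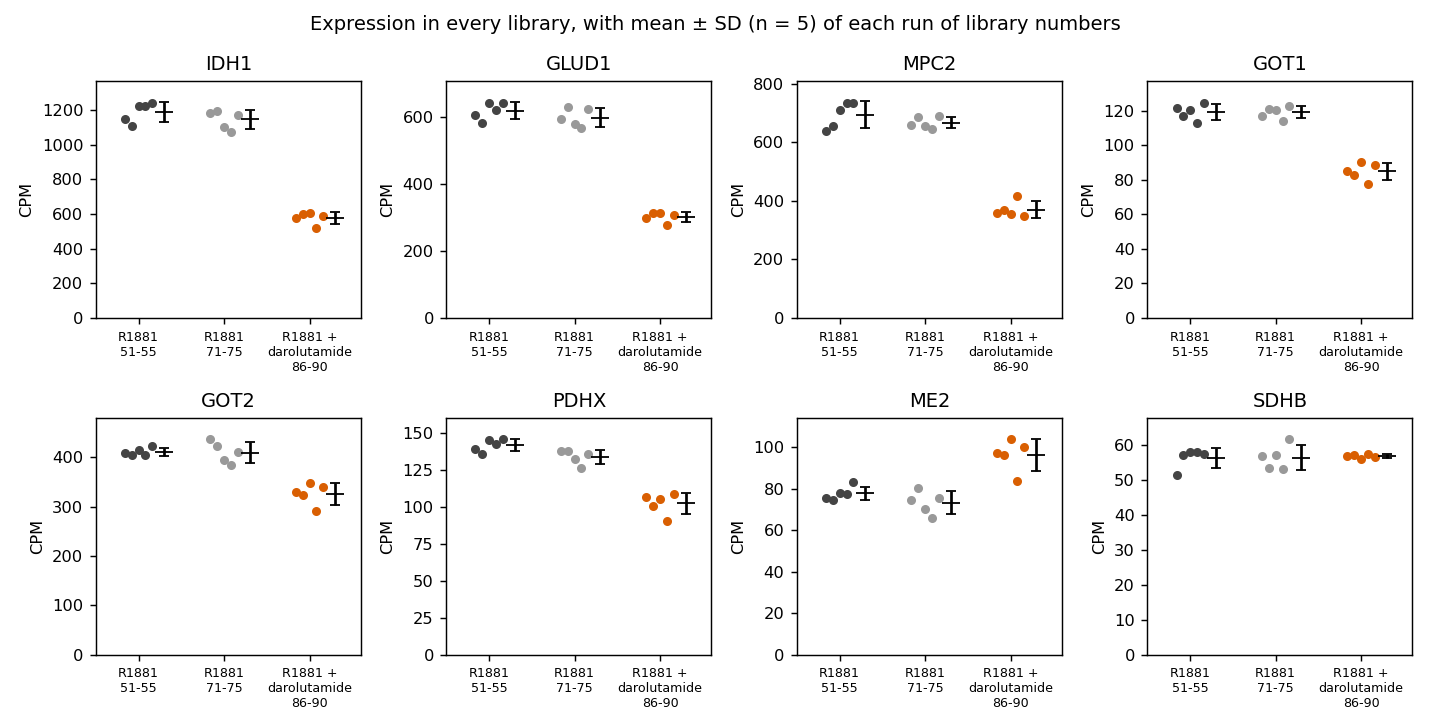
Expression (CPM, y axis from 0) of 8 of the genes in each library, in columns for R1881 libraries 51 to 55, R1881 libraries 71 to 75 and combination libraries 86 to 90, with the mean ± SD (n = 5) beside each column. IDH1, GLUD1, MPC2, GOT1, GOT2 and PDHX lie lower in all combination libraries than in any R1881 library, ME2 lies higher, and SDHB lies at 56.1 to 57.3 CPM within the R1881 range.

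Citrate synthesis, isomerisation in the cytosol and export changed little or varied between libraries. CS, the synthase that condenses acetyl-CoA with oxaloacetate, was 542 ± 26.3 and 511 ± 30.3 CPM (log2 difference -0.08, 95% interval -0.17 to 0.00, adjusted p = 0.106 from limma). It passed without R1881 replicate 5 (-0.10, adjusted p = 0.0341) or without combination replicate 3 (-0.11, adjusted p = 0.0483). CS also passed against R1881 libraries 51 to 55 alone (-0.11, adjusted p = 0.04 from limma). With a correction for GC content, described below, it passed as well (-0.10, adjusted p = 0.0021 from limma). ACO1, the cytosolic aconitase that also binds iron-responsive elements as IRP1, was at 94.7 to 101.2 CPM with R1881, with a median of 98.7, and at 102, 108, 109, 99.3 and 111 CPM with the combination. Replicate 4 was within the R1881 range and the other 4 were above it, with a log2 difference of 0.10 (standard error 0.031, adjusted p = 0.0109 from limma). The adjusted p was 0.0592 against R1881 libraries 51 to 55 alone and 0.0517 against 71 to 75 alone by limma. SLC25A1, the mitochondrial citrate carrier, was at 61.8 to 87.6 CPM with R1881 and at 52.3, 54.3, 42.6, 92.2 and 56.8 CPM with the combination. Here 4 combination libraries lay below all R1881 libraries and replicate 4 lay above them all. The difference of -0.30 did not pass (adjusted p = 0.064 from limma), while without replicate 4 it was -0.47 (adjusted p = 0.000136 from limma).

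Of the 5 isocitrate dehydrogenase genes, IDH1, IDH2 and IDH3A were lower, as 23.7% of all genes were, and IDH3B and IDH3G did not pass. IDH1, the cytosolic and peroxisomal enzyme that makes NADPH (chromosome 2, 208236229 to 208266074, minus strand), was at 1076 to 1243 CPM with R1881, with a median of 1177, and at 577, 602, 608, 521 and 586 CPM with the combination. All combination libraries were at about the same level, well below the lowest R1881 library, and the mean was 49.6% of that with R1881 (log2 difference -1.01, standard error 0.041, 95% interval -1.10 to -0.92, adjusted p = 8.11e-13 from limma). No annotated gene on the opposite strand overlaps its exons, and the difference with library totals was -0.94. IDH2, the mitochondrial NADP-dependent enzyme, was at 154 to 185 CPM with R1881 and at 129, 132, 111, 186 and 141 CPM with the combination. Replicate 4 lay above all R1881 libraries and the other 4 below them all. Its difference of -0.26 passed (standard error 0.082, adjusted p = 0.0149 from limma), and not without combination replicate 3 (-0.18, adjusted p = 0.0583), nor against R1881 libraries 51 to 55 alone (adjusted p = 0.0765) or 71 to 75 alone (adjusted p = 0.0899). Per kilobase, IDH1 exceeded IDH2 by a ratio of 8.13 ± 0.777 with R1881 and 4.91 ± 1.11 with the combination. Of the NAD-dependent enzyme of the cycle, the catalytic subunit gene IDH3A (chromosome 15, 78131498 to 78171945) fell from a range of 74.6 to 86.5 CPM to 63.9, 67.7, 65.3, 60.3 and 65.3 CPM, without overlap (log2 difference -0.32, standard error 0.039, adjusted p = 1.8e-06 from limma). ACSBG1 on the opposite strand overlaps 63.9% of its exon bases and was not analysed here. The genes of the other subunits did not pass, at 64.1 ± 2.32 and 63.7 ± 4.44 CPM for IDH3B and 49.5 ± 5.12 and 45.2 ± 10.1 CPM for IDH3G. Without combination replicate 4, the difference of IDH3G was -0.26 and passed (adjusted p = 0.00915 from limma).

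The 2-oxoglutarate dehydrogenase complex, which makes succinyl-CoA, had both of its own genes lower, against 23.7% of all genes. OGDH, its E1 subunit (chromosome 7, 44606572 to 44709066), was at 259.9 to 321 CPM with R1881, with a median of 283, and at 211, 203, 178, 264 and 214 CPM with the combination. Only replicate 4 reached into the R1881 range (log2 difference -0.42, standard error 0.068, adjusted p = 6.29e-05 from limma). DLST, the E2 core, differed by -0.09 (163 ± 5.14 and 153 ± 4.17 CPM, adjusted p = 0.0157 from limma), and by -0.02 with library totals (adjusted p = 0.585), and did not pass against R1881 libraries 71 to 75 alone (adjusted p = 0.0588).

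From succinyl-CoA to oxaloacetate, none of 10 genes passed in the main test, which 46.6% of all genes passed. These were the succinyl-CoA ligase genes SUCLA2, SUCLG1 and SUCLG2, the succinate dehydrogenase genes SDHA, SDHB, SDHC and SDHD, fumarase (FH), and the cytosolic and mitochondrial malate dehydrogenases MDH1 and MDH2. Their log2 differences ran from -0.10 (MDH1) to 0.09 (SUCLG1), with adjusted p from 0.0512 (MDH1) to 0.889 (SDHA) by limma. SDHB, the iron-sulphur subunit (chromosome 1, 17018664 to 17054032), was at 51.3 to 61.6 CPM with R1881 and at 56.8, 57.2, 56.1, 57.3 and 56.6 CPM with the combination. The combination libraries lay inside the R1881 range, and the interval of the difference was -0.07 to 0.10. SUCLG1 (0.16, adjusted p = 0.00367), SDHC (0.13, adjusted p = 0.0119) and SDHD (0.13, adjusted p = 0.0204) passed as higher by limma with library totals. Leaving out 1 library let FH and MDH1 pass as lower without combination replicate 3 (-0.11, adjusted p = 0.0325 for FH, and -0.12, adjusted p = 0.0244 for MDH1), and without R1881 replicate 6 (adjusted p of 0.0438 and 0.0471 from limma). MDH1 also passed without R1881 replicate 2 (adjusted p = 0.049), and SUCLG1 passed as higher without combination replicate 4 (0.11, adjusted p = 0.0252 from limma). Against R1881 libraries 51 to 55 alone, FH and MDH1 were lower (adjusted p = 0.044 and 0.0498 from limma). MDH1 was also lower with a minimum mean of 1 CPM (adjusted p = 0.0492 from limma). With a correction for GC content, described below, both were lower (adjusted p = 0.00187 and 0.00441 from limma), where 60.3% of the genes passed. Annotated pseudogenes exist for several of these genes, among them 6 of SDHD, 4 of SDHC and 4 of SDHA, and reads that fit a copy may have been left out or split.

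Of the enzymes that exchange pyruvate, phosphoenolpyruvate and malate, the malic enzymes moved in opposite directions. ME1, the cytosolic NADP-dependent enzyme, was at 84.9 to 106 CPM with R1881 and at 92.0, 88.9, 90.2, 71.8 and 84.7 CPM with the combination. The groups overlapped in 3 libraries of the combination (log2 difference -0.21, standard error 0.057, adjusted p = 0.00671 from limma), and the call was lost with library totals (-0.13, adjusted p = 0.0691) and against R1881 libraries 71 to 75 alone (adjusted p = 0.0782). ME2, the mitochondrial NAD-dependent enzyme (chromosome 18, 50879080 to 50954257), rose from a range of 66.1 to 83.3 CPM to 97.4, 96.1, 104, 83.6 and 100.1 CPM. Its lowest combination library, replicate 4, exceeded the highest R1881 library by a small margin (log2 difference 0.35, standard error 0.054, adjusted p = 4.09e-05 from limma). PC, pyruvate carboxylase, did not pass, with 34.8 to 64.2 CPM with R1881 and 30.8, 33.0, 22.7, 62.1 and 33.6 CPM with the combination, where replicate 4 lay within the R1881 range and the other 4 below all of it (log2 difference -0.33, adjusted p = 0.139 from limma). Without that library the difference was -0.54 (adjusted p = 0.00183 from limma). PCK2, the mitochondrial phosphoenolpyruvate carboxykinase, had a difference of -0.13 (adjusted p = 0.318) and of -0.24 without replicate 4 (adjusted p = 0.0108 from limma).

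All 3 genes of glutamate dehydrogenase and the aspartate aminotransferases were lower without overlap, against 12.6% of all genes with all combination libraries below. GLUD1, which oxidises glutamate to 2-oxoglutarate (chromosome 10, 87050202 to 87094843, minus strand), was at 567 to 644 CPM with R1881, with a median of 614, and at 300.4, 314, 314, 277 and 309 CPM with the combination. The mean was 49.7% of that with R1881, with all combination libraries close together (log2 difference -1.01, standard error 0.038, 95% interval -1.09 to -0.93, adjusted p = 2.21e-13 from limma). GLUD2 is a near-identical copy without introns, so the split of reads between them is uncertain. The ratio of GLUD1 to GLUD2 was 4.07 ± 0.0748 with R1881 and 4.13 ± 0.198 with the combination, and their summed expression differed by -1.01 (standard error 0.036, adjusted p = 1.11e-13 from limma). The exons of GLUD1 also overlap SHLD2 on the opposite strand over 14.1% of their bases. GOT1, the cytosolic aspartate aminotransferase (chromosome 10, 99396870 to 99430624), went from 113 to 125 CPM to 84.9, 82.8, 90.3, 77.8 and 88.3 CPM (log2 difference -0.49, standard error 0.036, adjusted p = 3.63e-09 from limma). GOT2, the mitochondrial enzyme of the malate-aspartate shuttle (chromosome 16, 58707131 to 58734342), went from a range of 386 to 437 CPM to 331, 323, 348, 291 and 339.8 CPM (log2 difference -0.33, standard error 0.039, adjusted p = 1.49e-06 from limma).

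The ratio of a pair of genes within a library does not depend on how the libraries were scaled. By that ratio 13 pairs of isoenzymes or partners were compared. The test was a two-sided exact permutation test over all assignments of the libraries to the groups. Genes of a pair can differ in GC content, as IDH1 (41.8%) and IDH2 (55.5%) do, and its part in the ratios was not tested. The ratio changed in 6 of the 13 pairs after Benjamini-Hochberg adjustment over the pairs, and in 8 without combination replicate 4, where PC to PCK2 and SLC25A1 to CS were added (changes of -0.29 and -0.42). The log2 ratio of IDH1 to IDH2 fell by 0.75 (standard error 0.166), and that of ME1 to ME2 fell by 0.55 (standard error 0.039). That of MPC1 to MPC2 changed by 0.88 (standard error 0.081) and that of GOT1 to GOT2 by -0.16 (standard error 0.021), and all 4 had an adjusted exact permutation p of 0.00216. The ratio of IDH3A to IDH3B fell by 0.31 (standard error 0.076, adjusted exact permutation p = 0.00346), and that of PDK2 to PDK3 changed by 0.47 (standard error 0.171, adjusted exact permutation p = 0.00722, and 0.086 against R1881 libraries 71 to 75 alone). In the other 7 pairs the adjusted exact permutation p ran from 0.137 (PC to PCK2) to 0.844 (PDHA1 to PDHB). The ratio of the malate dehydrogenases MDH1 and MDH2 changed by -0.05 and that of SUCLA2 to SUCLG2, which give succinyl-CoA ligase its ATP or GTP form, by 0.01.

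**Figure D3:**
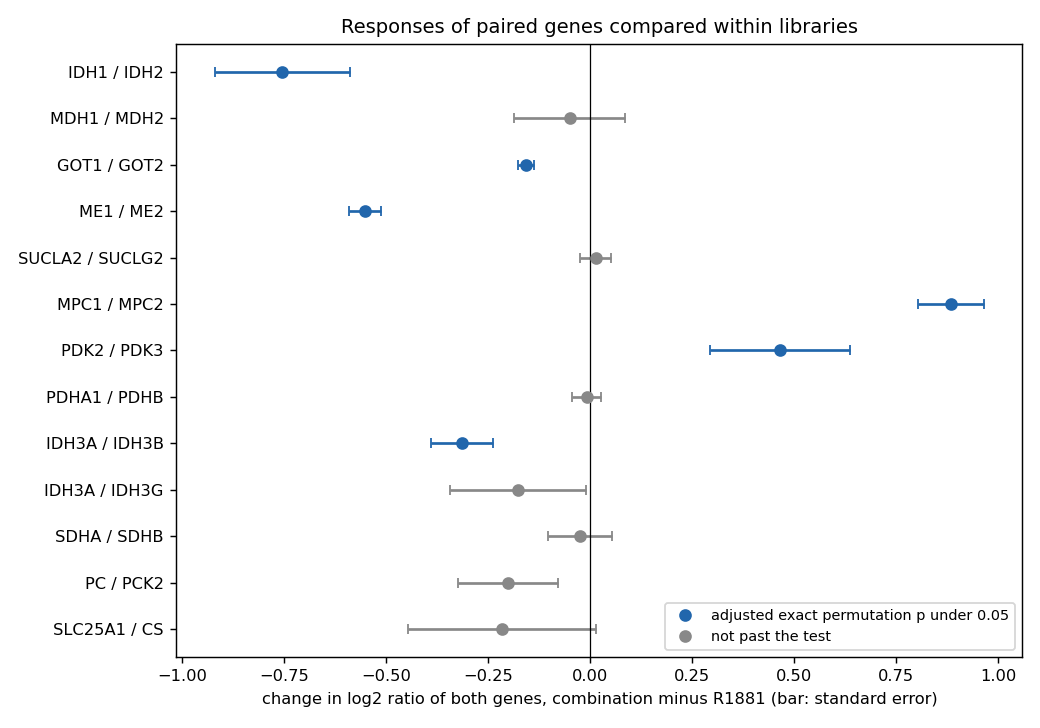
Change in the log2 ratio of both genes of 13 pairs (x axis, combination minus R1881, n = 5 and 10 libraries) with its standard error, coloured by whether the adjusted exact permutation p was under 0.05. IDH1 to IDH2 lies lowest at -0.75 and MPC1 to MPC2 highest at 0.88, and MDH1 to MDH2, SDHA to SDHB, SUCLA2 to SUCLG2 and PDHA1 to PDHB lie near 0.

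The spread among the combination libraries moved with the GC content of the transcripts. The 7 genes with a GC content of at least 55% in the canonical transcript, a limit chosen after the values were seen, were IDH2, OGDH, PCK2, IDH3G, PDK2, PC and SLC25A1. All 7 had their highest combination value in replicate 4, against 5 of the other 29. In most of the 29, replicate 4 was instead the lowest combination library, in all but MPC2, PDHB, SDHB, MDH2, SDHA and IDH3B. The median SD between combination libraries was 0.277 on the log2 scale in the 7 genes against 0.0868 in the others. With a correction for GC content in each library, which was added after the data had been seen and covered 13955 genes, 23 of the 36 genes were lower and 3 were higher, against 31.9% and 28.4% of the genes (60.3% together). The 9 genes that became lower were DLD, PDK3, CS, IDH3G, FH, MDH1, PC, PCK2 and SLC25A1. The difference of SLC25A1 was then -0.33 (adjusted p = 3.74e-06 from limma) and that of PC -0.30 (adjusted p = 0.00102 from limma). The adjusted p was 0.0366 for DLD, 0.0441 for PDK3, 0.0377 for IDH3G and 0.0339 for PCK2 by limma. The part of GC content in the uncorrected results was otherwise not tested.

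**Figure D4:**
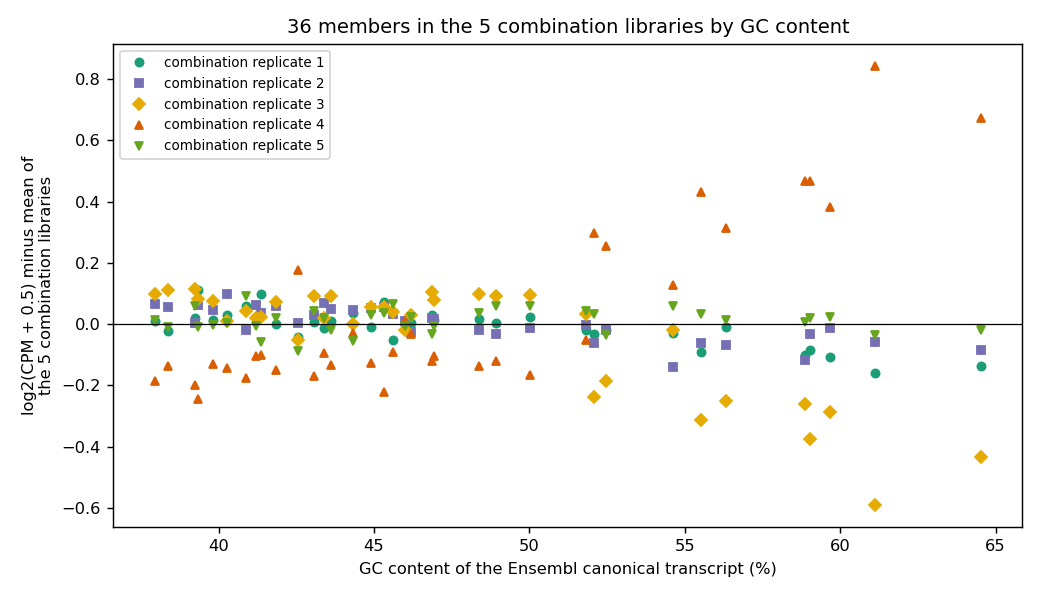
Deviation of each gene in each combination library from the mean of the 5 combination libraries (y axis, log2(CPM + 0.5)) against the GC content of its canonical transcript (x axis, percent), 1 symbol per library. Above 55% GC the triangles of replicate 4 lie highest and the diamonds of replicate 3 lowest. Most of the genes below 50% lie within 0.2 of the mean, and in most of them replicate 4 lies lowest.

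Among R1881 libraries, none of the 36 genes differed between numbers 71 to 75 and 51 to 55 by limma, where 3.1% of all genes did (2.29% lower and 0.805% higher), and 5 of the 36 had an unadjusted p under 0.05. Their log2 differences between these runs ranged from -0.11 to 0.21 (PC).

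Of 42 other genes of the same pathways, 37 were measured, with 14 lower, 9 higher and 14 past neither side of the test (37.8% lower and 24.3% higher, against 23.7% and 22.8% of all genes), at a median log2 difference of -0.10. PDK4, SLC13A2, SLC13A5, PCK1 and ME3 were not analysed here. In 11 of the 37 all combination libraries lay below all R1881 libraries and in 3 they lay above, against 12.6% and 10.8% of all genes. Genes of glutamine and glutamate handling were found on both sides, but more of them were lower than higher. Of 5 glutamine and glutamate enzymes, 3 were lower and 1 was higher. The 3 include GLUD2, the near-identical copy of GLUD1, and the split of reads between them is uncertain. Of 7 glutamine, glutamate and aspartate carriers, 4 were lower and 1 was higher. The higher carrier, SLC25A18, had only 2 to 16 reads per library. GLS2, a glutaminase, rose from 7.63 ± 0.560 to 13.4 ± 1.11 CPM (log2 difference 0.78, adjusted p = 2.14e-08 from limma). Of glutamine transporters, SLC1A5 fell from 84.8 ± 10.3 to 43.5 ± 8.57 CPM (-0.97, adjusted p = 4.09e-07) and SLC38A2 from 482 ± 32.1 to 318 ± 24.8 CPM (-0.60, adjusted p = 4.01e-08, both from limma). Both also differed between the runs of R1881 libraries, by 0.29 and -0.15. GPT2, the mitochondrial alanine aminotransferase, fell from 142 ± 10.7 CPM to 104 CPM, with a range of 87.0 to 128 CPM (-0.45, adjusted p = 4.79e-05 from limma), and SLC25A13, an aspartate-glutamate carrier of the malate-aspartate shuttle, from 58.9 ± 2.76 to 40.0 ± 3.75 CPM (-0.56, adjusted p = 1.12e-07 from limma).

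At the branch points of citrate and pyruvate, ACLY, the cytosolic enzyme that splits exported citrate into acetyl-CoA, fell from 795 ± 32.3 to 495 ± 30.3 CPM (-0.68, adjusted p = 8.31e-11 from limma). LDHA, which reduces pyruvate to lactate, fell from 759 ± 27.8 to 502 ± 33.4 CPM (-0.60, adjusted p = 6.21e-10 from limma). PDK1 fell from 52.0 ± 5.08 to 43.4 ± 3.83 CPM (-0.25, adjusted p = 0.00692 from limma), but against R1881 libraries 71 to 75 alone the difference was -0.14 with an adjusted p of 0.14. OGDHL, the paralogue of OGDH, rose from 8.78 ± 1.28 to 12.4 ± 2.44 CPM (0.47, adjusted p = 0.00256), and SLC13A3, a plasma membrane dicarboxylate carrier, from 3.18 ± 0.398 to 4.49 ± 0.610 CPM (0.44, adjusted p = 0.000923, both from limma).

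**Figure D5:**
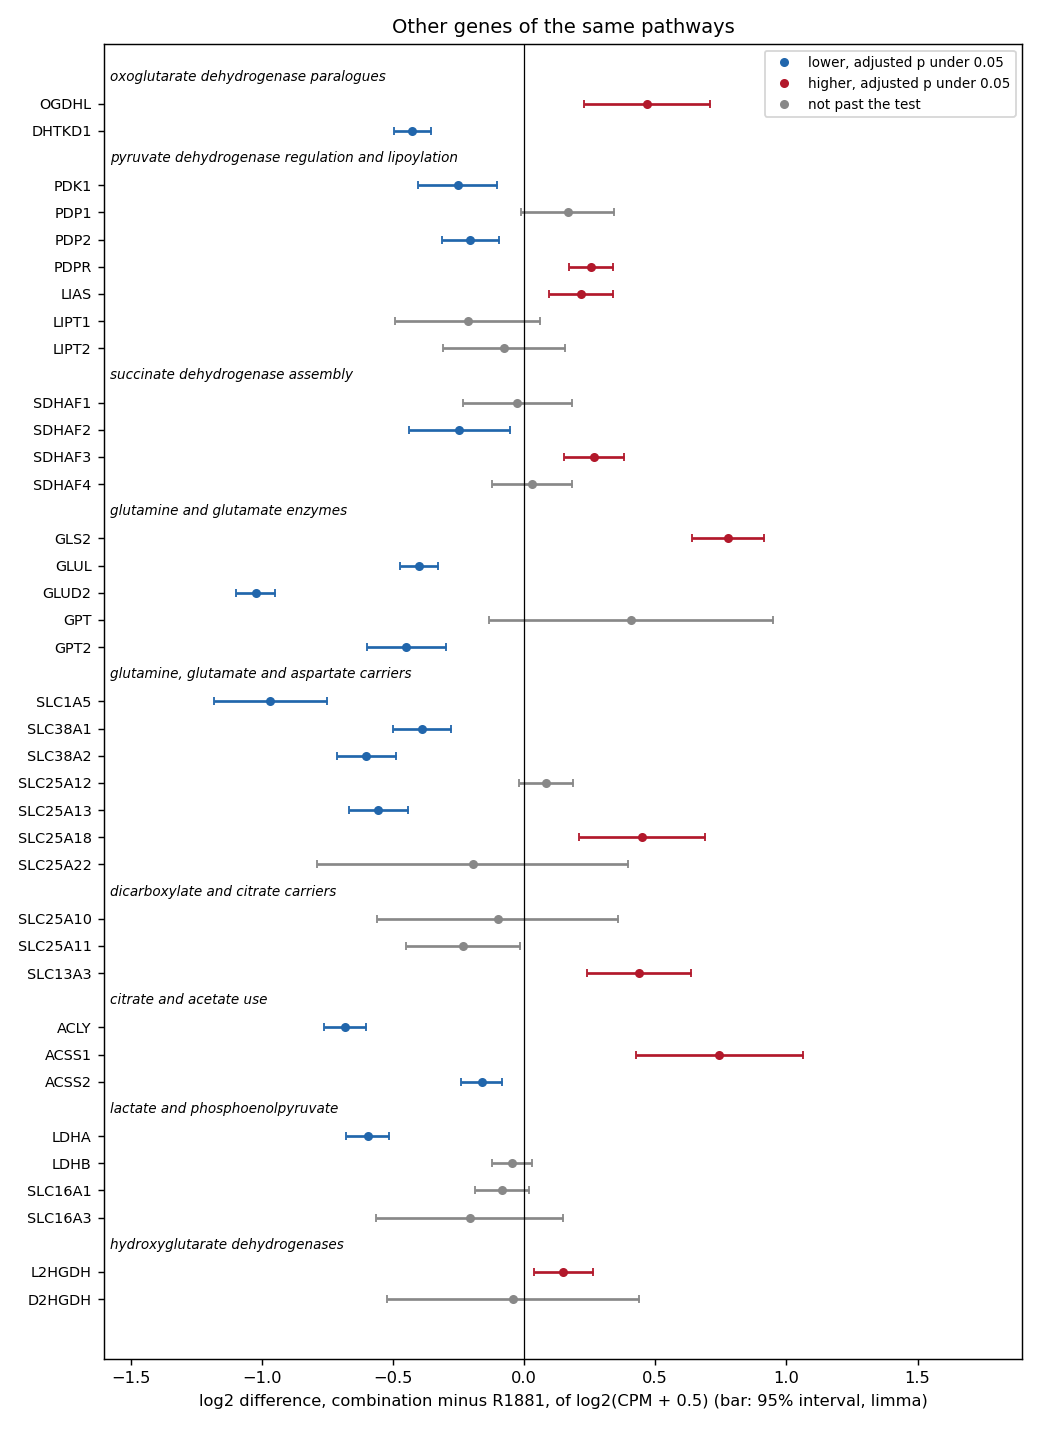
Log2 difference (x axis, combination minus R1881 of log2(CPM + 0.5)) of 37 further genes of the same pathways with its 95% interval from limma, ordered by function and coloured by call. GLUD2 (-1.02) and SLC1A5 (-0.97) lie lowest and GLS2 (0.78) highest. The split of reads between GLUD2 and its near-identical copy GLUD1 is uncertain.

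Other mitochondrial transcripts did not follow 1 direction. All 13 mRNAs encoded by mitochondrial DNA were higher by limma, against 22.8% of all genes, with a median log2 difference of 0.28. Their sum went from 19096 to 22996 CPM with R1881 to 22287 to 27432 CPM with the combination. Of 16 measured genes of mitochondrial import and biogenesis, 7 were lower (43.8%) and 1 was higher (6.25%), against 23.7% and 22.8% of all genes, among them TIMM23, the channel of the inner membrane translocase, at -0.63, and TFAM, the packaging factor of mitochondrial DNA, at 0.16. The 20 most abundant genes also took a larger share of reads, from 6.59% ± 0.115 (SD, n = 10) to 7.77% ± 0.287 (SD, n = 5). Scaling by library totals does not correct for such a share, and its part in the lower values of the 36 genes was not tested.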

How the data were processed

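The labels assigned 10 LNCaP libraries to R1881 and 5 to R1881 with darolutamide. Per the methods and the submitters' processing notes, the authors used bcl2fastq 2.17, aligned the reads to GRCh38 with STAR and counted them with featureCounts of the Subread package. The kit keeps strand, but the strand setting of the counting, the annotation and the versions of STAR and featureCounts are not given in the sources used here. The deposited table holds a scaled signal for each gene, described by the authors as CPM. In all libraries 100% of values were whole reads divided by 1 factor (tolerance 0.001 reads), and columns summed to 1005403 to 1078567.

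Differences were tested with limma 3.58.1 (trend test on log2(CPM + 0.5), R 4.3.3) over all 17272 genes with Benjamini-Hochberg adjustment, at an adjusted p under 0.05. This fold scale understates changes of low genes. edgeR 4.0.16 and DESeq2 1.42.0 were run on the recovered reads as alternatives. On these reads edgeR called 3943 genes lower and 4106 higher, beside 4098 and 3946 by limma. Other alternatives were pseudocounts of 0.1 and 1, a minimum mean of 1 CPM, library totals, TMM, a replicate block, either run of R1881 libraries alone and each library left out. The GC correction and the sum of GLUD1 and GLUD2 were added after the data had been seen. Of the tests, limma alone was checked on simulated data. With 100 genes changed at a log2 difference of 0.5 and 100 at 1, it recovered 89 and 98, with 4 false calls. The changed genes were drawn from the more abundant genes only, and the simulated reads were scaled by library totals, not as in the deposited values. Far fewer genes changed there than in the data, and no effect of GC content was simulated. The p-values measure only the spread between these libraries, which the sources do not tie to separate passages.

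The members and gene lists were chosen with earlier results of these data known. Library values are given for members past the test with an absolute log2 difference of at least 0.5. They are also given for the member of smallest p of each step. PDK2, ACO1, SLC25A1, IDH2, ME1, PC and others whose libraries disagreed were chosen after values were seen. SDHB, with a log2 difference of 0.01, and IDH3A, GOT1 and GOT2 are shown outside these rules. Of other pathway genes, ACLY, PDK1 and PDK4 and up to 10 of largest difference at a mean of at least 1 CPM were named. A few genes of the lists written at the outset, and pairs that held them, are not reported here. Positions and overlaps are from GENCODE version 44 and promoters from RefSeq and need not match the annotation the authors used.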

Additional observations from a re-analysis of the deposited data

Results flagged for a closer look

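In 6 of 104 groups of values examined, 1 library stood apart from the rest of its group by Dixon's criterion, which chance gives in about 1 of 20 groups, and in all 6 it was combination replicate 4. That library was highest in SLC25A1 (92.2 CPM, the others 42.6 to 56.8) and in PC (62.1 CPM, the others 22.7 to 33.6). It was lowest in PDK3 (18.2 CPM), SLC25A13 (33.3 CPM), LDHA (444 CPM) and FKBP5 (133 CPM).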

How the results depend on the processing

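Of the 36 genes, 14 were lower and 3 higher, and 17 kept their side of the threshold under all 27 alternatives run. These included 10 that passed: DLAT, GLUD1, GOT1, GOT2, IDH1, IDH3A, MPC2, OGDH and PDHX as lower and ME2 as higher. With library totals 9 were lower and 6 higher and the median was -0.0196, a scaling that itself moved the median of all genes by 0.07. With the GC correction 23 were lower, and with R1881 libraries 71 to 75 alone 1 was higher, and the cause was not tested. Leaving out 1 library gave 12 to 16 lower and 3 to 4 higher, a median of -0.10 to -0.08, and 6 to 8 pairs whose ratio changed. For the other pathway genes it gave 13 to 17 lower and 8 to 10 higher, and for all genes 3723 to 4781 lower and 3495 to 4096 higher. Between the runs of R1881 libraries, 30 to 642 of all genes were lower and 20 to 307 higher, and of the 36 genes 0 were lower and 0 to 1 higher, with 1 higher when R1881 replicate 1 or 3 was left out. In libraries of the same replicate number, deviations correlated by -0.14 to 0.34, so the numbers were not taken as pairs, and with them as a block 11 of the 36 genes were lower and 2 higher. Without combination replicates 3 and 4 together, 13 were lower and 3 higher, and 8 pairs changed. PDK2 had at least 250 reads in every library, but of the other pathway genes called higher SLC25A18 had 2 to 16 and ACSS1 4 to 29, and with a minimum mean of 1 CPM 7 in place of 9 were higher.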
